A study of Mus musculus with 6 samples.

Results

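The olfactory receptor genes are the largest gene family of the mouse genome. They were examined here as places where DNA ends were recovered in sorted forebrain neurons, a cell type in which these receptors have no known general role. Members were the GENCODE vM21 protein-coding genes of chromosomes 1 to 19 whose symbol is Olfr followed by a digit. Of the 20807 protein-coding genes on those chromosomes, 1128 qualified (1127 distinct symbols), and 40 of them carry a -ps symbol although GENCODE lists them as protein-coding. Gene bodies with 5 kb on each side were merged where they overlapped, which gave 725 regions, beside 20404 regions when all other protein-coding genes are included. Regions less than 1 Mb apart were joined into 48 chromosome clusters. The regions cover 16.8 Mb, or 0.682% of chromosomes 1 to 19, and 490 of them hold 1 gene.

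The data are BLISS libraries. In BLISS, an adaptor is ligated in fixed cells to the free ends of broken DNA, and the tagged DNA is transcribed and sequenced, so that the 5′ end of a read marks the base next to a break. All 6 libraries came from forebrain neurons of CK-p25 mice taken 2 weeks into induction by removal of doxycycline from the diet. These mice carry a transgene that is switched on in forebrain neurons when doxycycline is withdrawn, and p25 is a truncated activator of the kinase Cdk5. The libraries fall into the groups Con, Step1 and Step2 with 2 replicates each. The labels do not say how the 3 groups were defined, and they give the genotype and the induction alike for all of them. Con is thus a control by its name, and no label marks it as uninduced or transgene-free. The labels do not say whether replicates are separate animals, so the p-values below reflect variation among the 6 libraries at hand, and that variation may be technical. The deposited read lists hold 2300995 and 2273508 reads for Con, 2403238 and 2043098 for Step1, and 1526487 and 1480461 for Step2. Of these, 14888, 14835, 15514, 13431, 12092 and 12727 reads, in the same order, had their 5′ end in an olfactory receptor region. Values listed in sixes below keep this order of libraries.

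Each olfactory receptor is a G protein-coupled receptor. In the nose, a sensory neuron expresses a single receptor gene from a single allele and keeps the others in compact, silent chromatin, and an odorant that binds the receptor raises cyclic AMP through a dedicated G protein and adenylyl cyclase. The genes are short, have an intronless coding sequence, and lie in large clusters of near-identical relatives, so that a short read may match several places. Class I receptors, the kind shared with fish, lie in a single cluster beside the beta-globin genes, and class II receptors are spread over the other clusters.

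One position held most of the reads that set Step2 apart, and its bases are shown because the comparisons below turn on it. It is base 90395133 of chromosome 2 (mm10), on the + strand, in the region of Olfr1274-ps (chr2:90393683-90408897). The position lies 3550 bases before the annotated start of that gene (chr2:90398683-90403897) and inside no annotated gene. The reference is printed below from 60 bases before the position, on the + strand, with capitals for the 46 bases covered by most of the reads that start there.
chr2:90395073-90395252: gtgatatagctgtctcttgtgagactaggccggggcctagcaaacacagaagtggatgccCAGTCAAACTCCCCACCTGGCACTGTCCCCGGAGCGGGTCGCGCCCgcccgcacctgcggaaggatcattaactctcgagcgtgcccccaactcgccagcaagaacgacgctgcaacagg

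The Con libraries had 1 and 0 reads at this base, those of Step1 had 98 and 142, and those of Step2 had 1850 and 2643. The remaining bases of the region held 22, 17, 9, 12, 16 and 6 reads. The groups therefore did not overlap at the base itself, while the rest of the region was at similar low numbers in every library. The base took 98.3% of all reads of the region. Scaled to 1000000 reads of a library (RPM), it stood at 0.454 and 0 for Con, at 43.0 and 73.1 for Step1 and at 1268 and 1864 for Step2. Both sequencing runs recorded in the read names showed the order, with 1, 0, 45, 69, 632 and 1109 reads in run 1 and 0, 0, 53, 73, 1218 and 1534 in run 2.

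**Figure D1:**
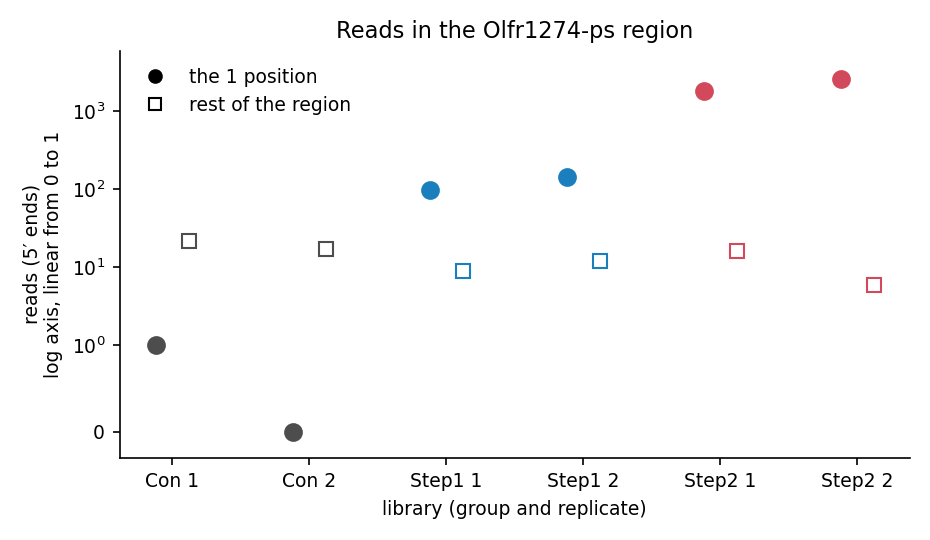
Reads at base 90395133 of chromosome 2 (filled circles) and in the rest of the Olfr1274-ps region (open squares) in each of the 6 libraries, on a logarithmic axis that is linear from 0 to 1. The Step2 circles at 1850 and 2643 reads lie above the Step1 circles at 98 and 142, while the squares stay between 6 and 22 reads.

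The alignments at this base had marks of doubtful placement. Of the 4734 reads, 77.7% were 46 bases long, 66.8% had a mapping quality of 34, and 1.63% reached 42, the highest quality in the files, whereas 69.2% to 71.1% of the other olfactory receptor reads reached it. The 46 bases hold 71.7% G and C against 38.2% over all olfactory receptor regions. An exact copy of the 46 bases was found nowhere else on chromosomes 1 to 19 and X, but the first 24 bases occur at 6 places. The other 5 are printed in the orientation of the reads, with bases that differ from the Olfr1274-ps sequence in lower case, to show how the copies part after a shared start.
chr1:195240755-195240800, + strand: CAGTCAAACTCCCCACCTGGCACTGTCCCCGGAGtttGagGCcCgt
chr12:78350858-78350903, - strand, in Gphn: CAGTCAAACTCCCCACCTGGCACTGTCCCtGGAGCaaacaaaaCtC
chr16:17222320-17222365, - strand: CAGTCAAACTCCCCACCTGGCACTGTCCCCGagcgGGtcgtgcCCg
chr17:22877883-22877928, - strand: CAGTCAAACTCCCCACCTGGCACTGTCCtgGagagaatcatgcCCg
chr19:61198629-61198674, + strand: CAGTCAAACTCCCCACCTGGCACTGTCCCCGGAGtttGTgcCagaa
These 5 places differ from the Olfr1274-ps copy at 8, 10, 11, 15 and 9 bases, and no library had a read that started at the matching base of any of them. Within 100 bases, the place on chromosome 16 had 3, 7, 0, 0, 0 and 0 reads, and that on chromosome 12 had 0, 1, 0, 0, 0 and 0. The others had none. Close to the Olfr1274-ps base, chr2:90395143 on the + strand had 3, 8, 1, 0, 0 and 0 reads, the most in Con.

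Starting 52 bases after the position, 21 bases in a row are shared with the ribosomal RNA gene annotated on chromosome 17 (CT010467.1, chr17:39846353-39848827). Ribosomal RNA genes are repeated in long arrays that the chromosome sequences of the assembly largely leave out. The reads in that gene were 548, 981, 393, 492, 727 and 1062, or 249, 449, 172, 253, 498 and 749 RPM. They were highest in Step2, like the Olfr1274-ps base, but Step1 was not above Con. Their part in the Olfr1274-ps count was not tested. As background, the 46 bases themselves resemble, on the opposite strand, the gene of the large-subunit ribosomal RNA. A reference of that repeat was not used here, so in these files ends at the Olfr1274-ps base cannot be told apart from reads of ribosomal DNA placed there by the aligner.

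The share of each library's reads that fell in olfactory receptor regions was 0.676% and 0.679% for Con, 0.680% and 0.692% for Step1 and 0.829% and 0.898% for Step2. The groups did not overlap in this count, and Step2 was the highest. The Step2 mean of 0.863% ± 0.0486 (SD, n = 2) was 0.186 percentage points above the Con mean of 0.677% ± 0.00273 (SD, n = 2) and 0.177 points above the Step1 mean of 0.686% ± 0.00814 (SD, n = 2). Step1 was 0.00847 points above Con. The exact two-sided permutation p was 0.33 for each of the 3 comparisons, the smallest that 2 libraries against 2 can give. Step1 and Step2 were compared with the same Con libraries.

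Without the Olfr1274-ps region the shares came to 0.675% and 0.679% for Con, 0.676% and 0.684% for Step1 and 0.701% and 0.711% for Step2. The Step2 libraries were still the highest, but the difference from Con was 0.0293 points. Step1 and Con now overlapped, with a difference of 0.00307 points (exact two-sided permutation p 0.67). They also overlapped within each sequencing run, among reads of higher mapping quality, without piled-up windows and with all deposited reads as the total. They stayed apart with wider flanks and in the count that follows. With reads of the same position and strand counted once, and the region kept, the shares were 0.669%, 0.672%, 0.673%, 0.684%, 0.687% and 0.706%, and the difference between Step2 and Con was 0.0258 points. Most of the excess of Step2 in the count of all reads was thus carried by the single base near Olfr1274-ps. A share does not tell more ends in these regions from fewer ends elsewhere in the genome.

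**Figure D2:**
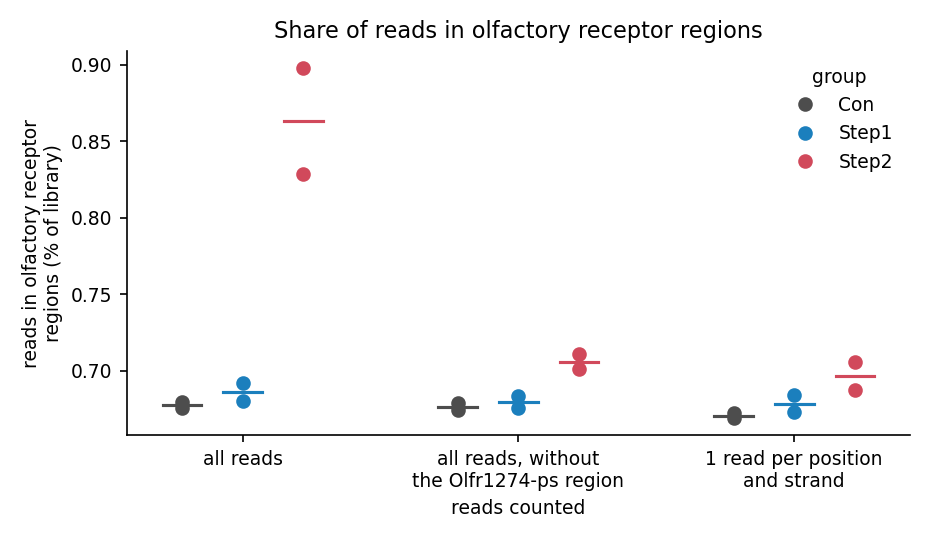
Reads in olfactory receptor regions as a percent of a library's reads outside piled-up windows, for all reads, without the Olfr1274-ps region, and with 1 read per position and strand. Points are single libraries, bars are group means, and the vertical axis does not start at 0. The Step2 points at 0.829% and 0.898% drop to 0.701% and 0.711% once the Olfr1274-ps region is left out.

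Of the 725 regions, 683 had at least 10 reads in at least 2 libraries and were tested with limma voom beside all other protein-coding gene regions, with p-values adjusted by the Benjamini-Hochberg method over all 18854 regions. Between Step1 and Con, 0 of the 683 passed an adjusted p of 0.05, against 0.186% of all regions tested, and 32 had an unadjusted p under 0.05. This count was 4 without Con replicate 1 (Olfr1274-ps higher; Olfr535 with Olfr536, Olfr651 to Olfr655, and Olfr1191-ps1 with Olfr1192-ps1 lower), a setting in which 2.72% of all regions passed. It was 1 (Olfr1274-ps) without either Step2 library, against 0.0908% and 0.101% of all regions. Between Step2 and Con, 1 passed, against 0.207% of all regions. Between Step2 and Step1, 1 passed, against 0.0743% of all regions. The region that passed was Olfr1274-ps in both cases. Its reads were 23, 17, 107, 154, 1866 and 2649, and limma gave a log2 fold change of 7.38 (SE 0.755, adjusted p 8.87e-08) for Step2 over Con and 4.68 (SE 0.315, adjusted p 2.07e-13) for Step2 over Step1. For Step1 over Con the log2 fold change was 2.70 (SE 0.815) with an adjusted p of 0.262 in limma. That difference did pass with limma-trend (2.64, adjusted p 1.28e-15, against 0.17% of all regions) and with the replicate block (2.77, adjusted p 1.61e-11, against 0.414%). At a mapping quality of 42, Olfr1274-ps still passed for Step2 over Con (2.93, adjusted p 0.00228 in limma, against 0.239% of all regions). It also passed there for Step2 over Step1 (3.28, adjusted p 0.00338 in limma, against 0.0398%). With 1 read per position and strand, the region held 12, 9, 8, 13, 11 and 5 reads. Under that count 634 olfactory receptor regions were tested and 0 passed in each of the 3 comparisons, against 0.105%, 0.0777% and 0.0444% of all regions.

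No other region with its 5-kb flanks passed in these fits of all 6 libraries. With 20-kb flanks, that of Olfr165 also passed (0.95, adjusted p 0.0169 for Step1 over Con, and -1.29, adjusted p 0.00779 for Step2 over Step1, both in limma). With those flanks 0.242% and 0.108% of all regions passed in these comparisons. The median log2 fold change over the 683 regions was 0.04 for Step1 over Con, 0.08 for Step2 over Con and 0.06 for Step2 over Step1, beside -0.05, -0.05 and 0.01 over all regions tested. Of the 683, 373 (54.6%), 376 (55.1%) and 370 (54.2%) were above 0, beside 43.9%, 45.4% and 50.7% of all regions. The spread around these medians was wide, with 5th and 95th percentiles of -0.91 and 0.94 for Step2 over Con. An unadjusted p under 0.05 was reached by 4.69%, 5.56% and 2.93% of the olfactory receptor regions, beside 8.14%, 8.82% and 3.45% of all regions. Reads per region were few, with a median of 88 over the 6 libraries together, so a change of a single region had to be large to be seen.

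The regions with the smallest p-values that did not pass are given by their reads. Olfr401 (chr11:74108712-74127941) had 9, 11, 28, 18, 8 and 13 reads, the most of them in the Step1 libraries. Olfr1436 (chr19:12293183-12304130) had 4, 6, 17, 14, 6 and 6 reads, again with both Step1 libraries above the others. The limma log2 fold changes of Step1 over Con were 1.21 (SE 0.464, adjusted p 0.467) and 1.62 (SE 0.628, adjusted p 0.475). In the other direction, Olfr1009 (chr2:85710419-85730136) had 32, 31, 16, 7, 13 and 15 reads, and Olfr1000, nearby in the same cluster (chr2:85602037-85616903), had 31, 27, 13, 8, 9 and 5. In both, the Con libraries were the highest. The log2 fold changes of Step1 over Con were -1.42 (SE 0.432, adjusted p 0.268 in limma) for Olfr1009 and -1.38 (SE 0.441, adjusted p 0.321 in limma) for Olfr1000. The class I region of Olfr651 to Olfr655 (chr7:104545133-104606779) had 84, 98, 62, 47, 46 and 40 reads and a log2 fold change of -0.68 (SE 0.218, adjusted p 0.321 in limma) for Step1 over Con. Single positions carried part of the Con reads, 12 of 31 and 13 of 27 in Olfr1000, and, in the class I region, positions with 19 and 9 reads in the first Con library and 21 in the second. With 1 read per position the log2 fold changes were -0.17 for Olfr1000 (adjusted p 0.945 in limma), -0.22 for the class I region (adjusted p 0.804 in limma), -0.70 for Olfr1009, 0.59 for Olfr401 and 1.09 for Olfr1436.

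Between Step2 and Con, the lowest p-values among regions with fewer reads in Step2 belonged to Olfr1000, Olfr58 and Olfr299. Olfr58 (chr9:19775283-19790333) had 8, 15, 12, 8, 1 and 1 reads, and Olfr299 had 30, 21, 30, 16, 6 and 4. The Step2 libraries were the lowest for both. Their limma log2 fold changes of Step2 over Con were -2.32 (SE 0.877, adjusted p 0.441) and -1.63 (SE 0.621, adjusted p 0.443). Without Con replicate 1, Olfr58 passed (log2 fold change -2.77, adjusted p 0.0422 in limma), along with 2.12% of all regions. With 1 read per position the log2 fold change of Olfr299 was -1.08. Between Step2 and Step1, the region of Olfr974 to Olfr976 had 33, 24, 51, 39, 14 and 12 reads and a log2 fold change of -1.20 (SE 0.381, adjusted p 0.998 in limma).

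Summed over clusters, 0 of 48 passed between Step1 and Con, against 0.168% of the 2377 clusters and other 1-Mb windows tested. In limma, 1 passed between Step2 and Con, against 0.505%, and 1 between Step2 and Step1, against 0.168%. It was the largest cluster of the genome, with 227 genes in 137 regions on chromosome 2 (chr2:85325779-90408897), which includes Olfr1274-ps at its end. Its density was 0.412, 0.430, 0.418, 0.438, 0.809 and 1.05 RPM per kb. The limma log2 fold change was 1.13 (SE 0.109, adjusted p 1.31e-08) for Step2 over Con, 1.11 (SE 0.109, adjusted p 1.23e-08) for Step2 over Step1, and 0.02 for Step1 over Con. Without the Olfr1274-ps region the densities were 0.410, 0.430, 0.405, 0.415, 0.404 and 0.455, and the Step2 libraries were then the lowest and the highest of the 6. With 1 read per position, 0 of 48 clusters passed in each comparison, against 0.421%, 0.673% and 0.21% of all clusters and windows.

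The 15 clusters with at least 20 genes hold 933 of the 1128 genes. Their mean densities over the 6 libraries ran from 0.387 to 0.592 RPM per kb, and up to 0.444 without the largest cluster. With 1 read per position they ran from 0.385 to 0.439. Outside the chromosome 2 cluster, the lowest p-value for Step2 over Con belonged to a cluster of 8 genes on chromosome 1 that holds Olfr1410 to Olfr1416 and Olfr12 (chr1:92470925-92628412), named here after its values were seen. It had 90, 100, 120, 94, 99 and 98 reads, or 0.361, 0.405, 0.465, 0.428, 0.600 and 0.611 RPM per kb. Both Step2 libraries were the highest. The log2 fold change of Step2 over Con was 0.66 (SE 0.167) and did not pass, with an adjusted p of 0.0639 in limma. It was 0.66 as well without either Step1 library. In all 6 libraries it passed with limma-trend and with the replicate block, against 0.715% and 0.841% of all clusters and windows. With 1 read per position the order of the groups was kept, with densities of 0.354, 0.406, 0.487, 0.448, 0.585 and 0.546. Over all 48 clusters, 31, 36 and 35 (64.6%, 75.0% and 72.9%) had a log2 fold change above 0 in the 3 comparisons, beside 53.3%, 52.9% and 50.5% of all clusters and windows. An unadjusted limma p under 0.05 was reached by 1, 6 and 5 of the 48 (2.08%, 12.5% and 10.4%), beside 8.33%, 12.2% and 6.10% of all clusters and windows.

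**Figure D3:**
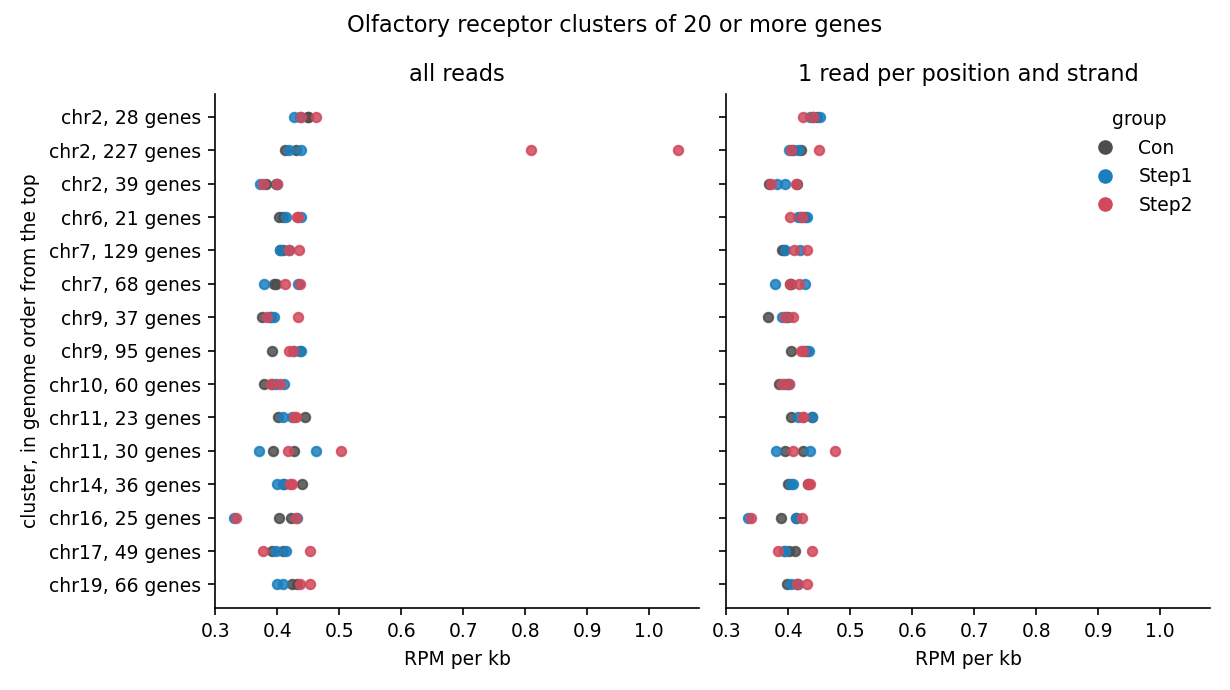
Read density in RPM per kb in the 15 olfactory receptor clusters with at least 20 genes, for all reads on the left and 1 read per position and strand on the right. Points are single libraries coloured by group, and the axes do not start at 0. The 227-gene cluster of chromosome 2 stands out on the left in Step2 (0.809 and 1.05).

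Within a library, olfactory receptor regions had slightly more reads per kb than chromosomes 1 to 19 as a whole. Outside 10-kb windows where reads pile up, the window of the Olfr1274-ps base among them, the ratio was 1.05, 1.06, 1.05, 1.07, 1.09 and 1.11, above 1 in each library. The mean log2 ratio was 0.10 ± 0.0300 (SD, n = 6), with an exact two-sided sign-flip p of 0.031, the smallest that 6 libraries can give. With assembly gaps left out of the length of the chromosomes the ratio fell to 1.04, and among reads with a mapping quality of 42 it fell below 1, with a mean log2 ratio of -0.10 (exact p 0.031). The sign of this difference therefore follows the choice of reads.

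Vomeronasal receptor genes, which detect pheromones and lie in clusters of close relatives as well, were the family most like them. Built by the same rule, 327 such genes formed 304 regions of 8.34 Mb with a G and C content of 38.0%. The ratio of the olfactory to the vomeronasal receptor density was 1.19, 1.19, 1.17, 1.18, 1.23 and 1.23, above 1 in each of 6 libraries, with a mean log2 ratio of 0.26 ± 0.0307 (SD, n = 6, exact sign-flip p 0.031). Stretches of 47 bases that occur more than once in the genome made up 13.1% of the olfactory receptor regions, 32.5% of the vomeronasal receptor regions and 11.2% of chromosomes 1 to 19. Per kb of unrepeated sequence the ratio of the olfactory to the vomeronasal receptor density turned to 0.930 (mean log2 ratio -0.10, exact p 0.031), and that to chromosomes 1 to 19 was 1.07. A mapping quality of 42 was reached by 48.4% to 51.3% of vomeronasal receptor reads and 79.8% to 82.0% of reads on chromosomes 1 to 19.

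**Figure D4:**
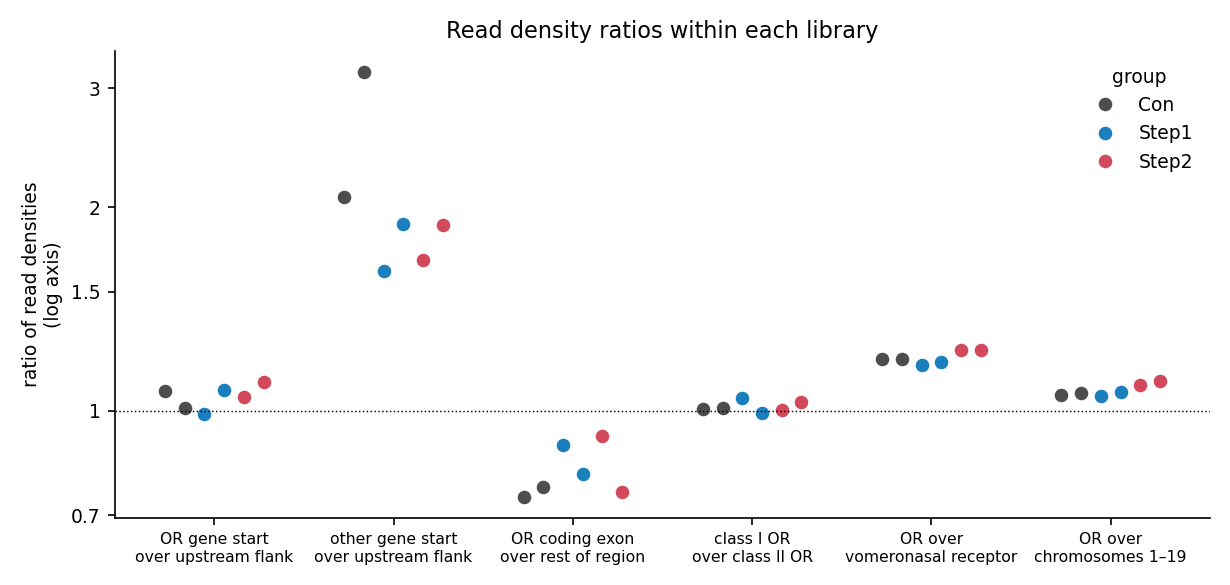
Ratio of read densities on a logarithmic axis for 6 pairs of sets, with 1 point per library coloured by group and a dotted line at 1. Olfactory receptor (OR) gene starts lie between 0.989 and 1.10 times their upstream flank and starts of other genes between 1.61 and 3.17, and the vomeronasal comparison lies between 1.17 and 1.23.

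Class I and class II genes were not separated by the test when all reads were counted. The density in the class I cluster, 129 genes beside the beta-globin genes (chr7:102471579-105374355), over that in the class II clusters was 1.00, 1.01, 1.04, 0.991, 1.00 and 1.03. The mean log2 ratio was 0.02 ± 0.0281 (SD, n = 6, exact sign-flip p 0.15625). It was 0.03 where mapping quality was 30 or more and 0.14 where it was 42, both with an exact sign-flip p of 0.031 (n = 6).

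Gene starts are where other genes of these neurons gather ends. Within 500 bases of the start, other protein-coding genes had 2.07, 3.17, 1.61, 1.89, 1.67 and 1.88 times the reads per kb found 2 to 5 kb upstream. For olfactory receptor genes the same ratio was 1.07, 1.01, 0.989, 1.07, 1.05 and 1.10, with a mean log2 ratio of 0.07 ± 0.0594 (SD, n = 6, exact sign-flip p 0.09375). On the log2 scale the ratio was 0.09 with 1 read per position, 0.11 where mapping quality was 30 or more, 0.11 in sequencing run 1 and 0.42 where mapping quality was 42, each with an exact sign-flip p of 0.031 (n = 6). The difference between the gene sets was -0.93 on the log2 scale, in the same direction in 6 of 6 libraries (exact p 0.031). Of the olfactory receptor gene models, 69 start at the coding start, so that their starts may be annotated short. The coding exons of the receptors had fewer reads per kb than the rest of their regions, with ratios of 0.746, 0.770, 0.889, 0.806, 0.916 and 0.758 and a mean log2 ratio of -0.30 ± 0.125 (SD, n = 6, exact sign-flip p 0.031). Repeated 47-base stretches made up 17.1% of the coding exons, against 13.1% of whole regions. The part of these repeats in the lower count was not tested.

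The promoters of the family are unlike those of most genes in their bases. In RefSeq sequences of GRCm38.p6 from 250 bases before to 50 after a start, 929 starts of 925 olfactory receptor genes were matched by symbol. Their median number of CG pairs was 1, with 33.8% holding none, against a median of 15 at 18245 starts of other genes. At least 10 CG pairs were found at 0.215% of olfactory receptor starts and 62.3% of the others, and the median G and C content was 35.0% and 58.0%. On either strand, TAATGA, a word of the kind bound by homeodomain factors such as Lhx2, occurred at 29.0% of olfactory receptor starts and 8.22% of all starts, and TATAAA at 41.1% and 12.1%. The palindromic motif of Ebf factors went the other way, at 0.538% of olfactory receptor starts and 1.01% of all starts. Where TAATGA and TATAAA both occur they can share end bases, since each starts with TA. A word match is a match of letters and not a bound site. No starts matched in G and C content were compared, and the part of base composition in these shares was not tested. The promoter of Olfr16, a receptor known for its response to lyral, is printed because it holds TAATGA, on the opposite strand and in capitals. Among the well-studied receptors with a matched start, it alone held this word. Its G and C content of 40.0% is above the family median of 35.0%.
chr1:172956518-172956817, + strand: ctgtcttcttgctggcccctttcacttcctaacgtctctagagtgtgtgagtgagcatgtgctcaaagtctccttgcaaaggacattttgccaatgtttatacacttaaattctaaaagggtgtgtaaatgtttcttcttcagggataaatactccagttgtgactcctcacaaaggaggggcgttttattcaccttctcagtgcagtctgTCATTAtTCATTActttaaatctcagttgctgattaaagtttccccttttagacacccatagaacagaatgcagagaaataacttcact
This window holds 2 CG pairs, and 0, 4, 1, 0, 0 and 0 reads started in it.

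Regions resembled one another in density. The median was 4.72 reads per kb over the 6 libraries together, with 5th and 95th percentiles of 3.19 and 6.27, and 713 of 725 regions lay within 2-fold of the median. Above them stood Olfr1274-ps with 317 reads per kb, followed by Olfr885 with 8.69, Olfr1465 with 8.06, Olfr310 with 7.81 and Olfr836 with 7.71. Olfr885 had 10, 27, 13, 15, 17 and 13 reads, of which 17.9% shared 1 start. When reads of a shared position were counted once, Olfr1465 was the densest (6.50 per kb), followed by Olfr1053 (5.67), Olfr477 (5.61), Olfr1032 (5.59) and Olfr713 (5.5).

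The least dense were regions of repeated sequence. Olfr1506 (chr2:90215178-90229493) had 0 reads in all 6 libraries, and each of its 1427 sampled 47-base words was found on the opposite strand around Gm13769 (chr2:90317200-90331360), a gene whose symbol does not make it a member and that held 1 read in all. A total of 40.7% of the 1517 words of the Olfr1274-ps region were found at Olfr1506. Next came the region of Olfr819 and Olfr247 with 1.21 reads per kb, Olfr834 with 1.55, Olfr1333 with 1.61 and Olfr461 with 1.62. Their share of repeated 47-base words was 68.4%, 61.1%, 41.5% and 67.5%. The 5 regions with more than 50% of repeated words had a median of 1.55 reads per kb, against 4.73 in the others. Over the 725 regions, which share libraries and depth, Spearman's rho between the repeated share and reads per kb was -0.45, given as a description. The files hold no read with a mapping quality under 11. A low density in these regions is a low number of placed reads, and the part of unplaced reads in it was not tested.

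**Figure D5:**
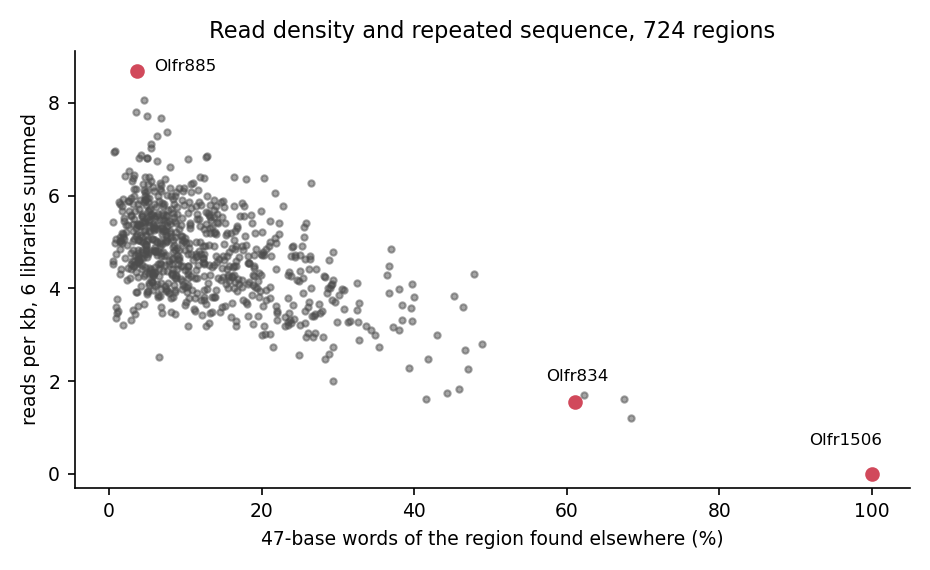
Reads per kb over the 6 libraries together against the percent of 47-base words of a region that occur elsewhere in the genome, for 724 regions, with Olfr1274-ps left out. Red points mark Olfr1506 (0 reads), Olfr834 (1.55 reads per kb) and Olfr885 (8.69), and the regions right of 50% lie low, with a median of 1.55.

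Reads piled on single positions elsewhere in the family too, but mostly in 1 library at a time. A position with at least 8 reads in a library was found 141 times, and 115 of these were in 1 library only. The largest after Olfr1274-ps, named after their values were seen, were chr7:140485769 in the region of Olfr535 and Olfr536 with 44 reads in 1 Con library and 0 in the other 5, chr7:86691320 near Olfr292 with 35 reads in the same library, 1 in the other Con library and 0 elsewhere, and chr7:102961750 in the class I region of Olfr578 with 18 and 27 reads in Con and 0 in Step1 and Step2. At chr7:86275765, near Olfr310, 21 and 1 reads were in Step2 and 0 in the others. Over the whole family, reads per occupied position were 1.25, 1.39, 1.14, 1.16, 1.22 and 1.23 without Olfr1274-ps, beside 1.24, 1.37, 1.13, 1.16, 1.19 and 1.22 on chromosomes 1 to 19. In both, the Con libraries had the highest values. In 6 regions a single position held more than 20% of the reads. Neither this count nor that of positions with at least 8 reads was made outside the olfactory receptor regions.

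Receptors with a known ligand or a role outside the nose were also looked up, by the reads of their regions. A merged region counts the reads of all its genes together. Olfr78 is a class I receptor of the carotid body and blood vessels that responds to short fatty acids and lactate. Its region, shared with Olfr560, had 22, 22, 19, 36, 15 and 17 reads. Olfr558, also of class I, binds isovaleric acid. Its region, shared with Olfr557, Olfr33 and Olfr559, had 49, 27, 33, 36, 32 and 31. The region that Olfr544, the azelaic acid receptor, shares with Olfr543 and Olfr545 had 26, 18, 29, 17, 17 and 14. The Step2 libraries hold fewer reads in total, so equal densities give lower counts there.

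Among class II receptors, Olfr73 responds to eugenol. Its region, shared with Olfr1161 and Olfr1162, had 21, 34, 30, 34, 15 and 32 reads. Olfr16 had 11, 23, 19, 17, 16 and 9. Olfr2, the octanal receptor, had 4, 25, 21, 11, 16 and 15. Olfr1393 is linked to glucose handling in the kidney. Its region, shared with Olfr1390, Olfr1391, Olfr1392 and Olfr10, had 57, 41, 64, 36, 38 and 42 reads. The region of Olfr90 and Olfr91 had 17, 24, 18, 14, 17 and 12. The regions of the receptors best known from studies of single-receptor choice and axon targeting had 22, 14, 14, 4, 11 and 4 reads (Olfr1507), 15, 13, 17, 17, 13 and 5 reads (Olfr17, shared with Olfr715b), and 13, 12, 11, 11, 6 and 13 reads (Olfr160). None of the regions of receptors with known ligands or roles passed in any comparison, and their adjusted p-values for Step2 over Con ran from 0.533 to 0.97 in limma.

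The genes that serve olfactory receptors, from signal transduction to receptor choice, were read from a list of 27. All 27 were tested in limma, and 0 passed in each comparison, beside 0.186%, 0.207% and 0.0743% of all regions, with 4, 5 and 1 at an unadjusted p under 0.05. These are 14.8%, 18.5% and 3.70% of the list, beside 8.14%, 8.82% and 3.45% of all regions. Their median log2 fold changes were -0.04, -0.11 and -0.06, beside -0.05, -0.05 and 0.01 over all regions. Adcy3, the adenylyl cyclase of olfactory cilia, had 65, 46, 95, 81, 45 and 37 reads, with both Step1 libraries the highest (Step1 over Con 0.74, SE 0.222, adjusted p 0.262 in limma). Cnga4, a subunit of the cyclic nucleotide-gated channel, had 34, 83, 45, 24, 12 and 27 reads and the lowest log2 fold change of the list for Step2 over Con, -0.93 (adjusted p 0.51 in limma). The highest was that of Gng13, a G protein gamma subunit, at 1.56 (adjusted p 0.53 in limma) with 3, 7, 14, 5, 11 and 8 reads. Omp, the marker of mature olfactory sensory neurons, had 5, 10, 6, 10, 6 and 2.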

How the data were processed

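BLISS reads of 6 libraries were analysed. Per the labels, reads were stripped of PCR duplicates by molecular identifier and mapped to mm10. The submitters' processing notes name Bowtie2, SAMtools and bedtools, with versions not given in the sources used here. A line of the deposited files is a read with its strand and a mapping quality score set by the authors' aligner, and none of these scores is under 11. The members and gene lists were chosen with earlier results of these data known.

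The 5′ ends of reads were counted per merged region and per cluster, once with all reads and once with 1 read per position and strand. Libraries were scaled by their reads on chromosomes 1 to 19 and X outside 26 piled-up 10-kb windows (more than 20 times the median window). The files hold read lists, from which counts were made here, and limma 3.58.1 in R 4.3.3 (voom, 1 mean per group over 6 libraries, at least 10 reads in 2 libraries, Benjamini-Hochberg) was used. On simulated data for Step2 against Con it recovered 17.9% of 1.5-fold, 49.3% of 2-fold and 100% of 4-fold changes over 18723 regions. Of 120 calls in that simulation, 9 were false. The 18723 regions are not only those of olfactory receptors, for which recovery was not assessed separately. Single values were tested by exact permutation over libraries. Densities leave out piled-up windows. Repeated sequence was found by comparing 47-base words, near the median read length, with the C57BL/6J sequences of the assembly. Patches, alternate sequences and the mitochondrial genome were left out.

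Regions named are those that passed, or else the 3 with the smallest p in each direction, the 5 densest and 5 least dense, clusters of 20 or more genes, and a list of well-studied receptors, of which Olfr151 was not found among the members. Alternatives covered duplicate positions, mapping quality, sequencing run, flank, scaling, filter, GC content, tool, replicate block and each library left out. Total reads per library, 1480461 to 2403238, limit what single regions can show.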

Additional observations from a re-analysis of the deposited data

How the results depend on the processing

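Of 690 recomputed values for 37 results, 580 were counted as unchanged, by a rule set for each kind of result. That rule did not always ask for a similar size. The share difference of Step2 over Con counted as unchanged in 14 of 14 alternatives, from 0.0195 to 0.210 points. The log2 fold change of Olfr1000 for Step1 over Con did so in 11 of 11, from -1.46 to -0.17. The 0, 1 and 1 regions that passed for Step1 over Con, Step2 over Con and Step2 over Step1 became 1, 1 and 2 with 20-kb flanks (Olfr165 added to the first and the third). Of all regions, 0.242%, 0.273% and 0.108% passed there. The olfactory receptor counts were 1, 1 and 1, each time Olfr1274-ps, with limma-trend, with the replicate block, and with GC content and the block together. Over all regions the shares were 0.17%, 0.371% and 0.101% with limma-trend, 0.414%, 0.483% and 0.122% with the block, and 0.292%, 0.403% and 0.122% with GC content and the block. For Step2 over Con and Step2 over Step1 the olfactory receptor counts were 0 and 0 with 1 read per position (0.0777% and 0.0444% of all regions), without piled-up windows (0.249% and 0.0212%) and without flanks (0.15% and 0.0375%). Leaving out single libraries gave 0 to 4, 1 to 2, and 1 to 1. The 4 came without Con replicate 1, and without it Olfr58 passed as well for Step2 over Con, while 2.72% and 2.12% of all regions passed. Without either Step2 library, Olfr1274-ps passed for Step1 over Con. Clusters went from 1 and 1 for Step2 over Con and Step2 over Step1 to 0 and 0 with 1 read per position (0.673% and 0.21% of all clusters and windows), a mapping quality of 42 (0.127% and 0.0424%) or no piled-up windows (0.505% and 0%). For Step2 over Con they were 2 with limma-trend and 2 with the replicate block (the chromosome 1 cluster at an adjusted p of 0.0346 and 0.0424), against 0.715% and 0.841% of all clusters and windows.

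The median log2 fold changes of the family (0.04, 0.08 and 0.06) are small and moved with many settings. For Step1 over Con they were -0.0057 with 1 read per position, 0.00064 at a mapping quality of 42, 0.015 in sequencing run 1, -0.013 without flanks, 0.090 with median-of-ratios scaling, 0.0098 with at least 20 reads in 4 libraries, 0.069 with GC content removed and 0.060 with the replicate block added to that. For Step2 over Con the same settings gave 0.046, 0.032, 0.018, 0.048, 0.14, 0.052, 0.11 and 0.12, with 0.053 at a mapping quality of at least 30 and 0.14 with limma-trend. For Step2 over Step1 they were 0.034 in run 1, 0.038 without flanks, 0.027 with 20-kb flanks, 0.11 with the higher filter and 0.11 with limma-trend. The replicate block alone gave 0.027, 0.080 and 0.073. Replicates with the same number did not deviate together (r from 0.008 to 0.020 over regions, and 0.130, -0.025 and 0.046 over clusters), so the numbers were not taken as pairs. Leaving out single libraries gave 0.0072 to 0.067, 0.058 to 0.088 and 0.0051 to 0.083, and differences in share of 0.0027 to 0.0142, 0.151 to 0.220 and 0.143 to 0.212 points.

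The log2 density ratio to chromosomes 1 to 19 was -0.10 at a mapping quality of 42, and that to vomeronasal receptors was -0.10 per unrepeated kb. Leaving out single libraries gave 0.091 to 0.11, 0.25 to 0.27, and -0.34 to -0.28 for coding exons, where 5 libraries cannot reach a p of 0.05. Class I over class II was -0.0019 with 1 read per position, 0.034 at a mapping quality of at least 30 and 0.14 at 42 (both p 0.031), and -0.091 with piled-up windows kept. The gene start ratio was 0.093, 0.11 and 0.42 under the first 3 of these, 0.11 in run 1 (all 4 with p 0.031) and -0.31 with piled-up windows kept. Without single libraries these ratios were 0.010 to 0.025 and 0.052 to 0.084. For Step1 over Con, Olfr1274-ps stood at -0.22 with 1 read per position and -0.36 at a mapping quality of 42, and the chromosome 2 cluster at -0.019, -0.047 and, without piled-up windows, -0.037, with -0.0094 to 0.059 on leaving out single libraries. Why values moved was not tested, except that counting a position once leaves at most 1 read per library at the Olfr1274-ps base, and leaving out piled-up windows removes it.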
